A study of Mus musculus with 7 samples.

Results

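DDX and DHX RNA helicase genes were examined for H3K79me2, the dimethyl form of lysine 79 of histone H3, in macrophages grown from mouse bone marrow. The members were the coding genes on chromosomes 1 to 19 whose symbols begin with Ddx or Dhx and a digit and that overlapped at least 1 region of the deposited table. Of 51 such genes, 45 had a region (88.2%), against 9246 of the 20661 coding genes of these chromosomes (44.8%). The 45 genes overlapped 75 of the table's 29397 regions, and the region with the highest mean count stands for each gene. Dhx9, the gene given as the marker of the set, was among them. Ddx4, Ddx25 and Ddx43, which are known for roles in germ cells, had no region, and neither did Ddx59, Ddx60 or Dhx40. All 45 were tested, and 43 of their regions had a mean of at least 50 counts.

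Marrow cells of C57BL/6 mice were cultured for 7 to 8 days with a source of M-CSF, the growth factor that drives macrophage differentiation. During that time they were given 1 µM SGC0946, a small-molecule inhibitor of the histone methyltransferase DOT1L, or its solvent DMSO. Each group had 3 libraries of chromatin immunoprecipitation with an H3K79me2 antibody, described by the labels as biological replicates, and nothing says whether they came from separate animals, so p-values measure the spread between these libraries. The growth protocol speaks of both wild-type and knockout mice, and which of them were the source of these cells is not stated, and an input sample was not used here.

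RNA helicases of the DEAD-box (DDX) and DEAH-box (DHX) families use ATP to unwind RNA or to strip proteins from it, and they serve nearly every step in the life of an RNA, from transcription and splicing to export, translation, ribosome assembly and decay. A few of them detect viral RNA in the cytoplasm of macrophages and other cells. H3K79me2 is laid down by DOT1L over the early part of transcribed genes, and no other enzyme is known to be a main source of it.

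Library totals were 16.7 to 19.5 M counts with DMSO and 2.95 to 3.13 M with SGC0946, a mean of 17.7 ± 1.54 M against 3.03 ± 0.0922 M (SD, n = 3), so that 17.1% was kept (p = 0.1 by an exact 2-sided permutation test, for 3 against 3 libraries the lowest value possible). How many reads each library was sequenced to is not given here, and the size of every fall in unscaled counts depends on it. For this reason each region was compared on 2 scales: the unscaled count, and the share of the library, meaning the count as a part of that library's total. Macrophage markers were covered by regions in 8 of 8 cases (DMSO means of 345 to 6485 counts), while 4 of 12 markers of other cells had a region. Of those 4, Mpo, Lck and Klf1 had 1.33 to 4 DMSO counts and Zbtb46 shared its region with Zgpat.

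All 45 helicase genes lost H3K79me2 reads with SGC0946. On unscaled counts every one was lower (edgeR quasi-likelihood test, Benjamini-Hochberg adjusted p under 0.05), as was 99.8% of all coding genes tested, so the fall is not a feature of the helicases. In each of the 45 the highest SGC0946 library lay under the lowest DMSO library. This was not counted over all coding genes and is not read as a feature of the helicases. The median log2 fold change of unscaled counts was -2.83 for the members and -2.83 for all coding genes. The median member kept 14.1% of its DMSO count, with the middle 50% between 13.0% and 16.5%, and the median coding gene kept 14.0%, with the middle 50% between 12.4% and 17.0%. Of the 45 members, 38 kept between 11.7% and 17.9%. The other 7 kept more than 20%, up to 58.5%.

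**Figure D1:**
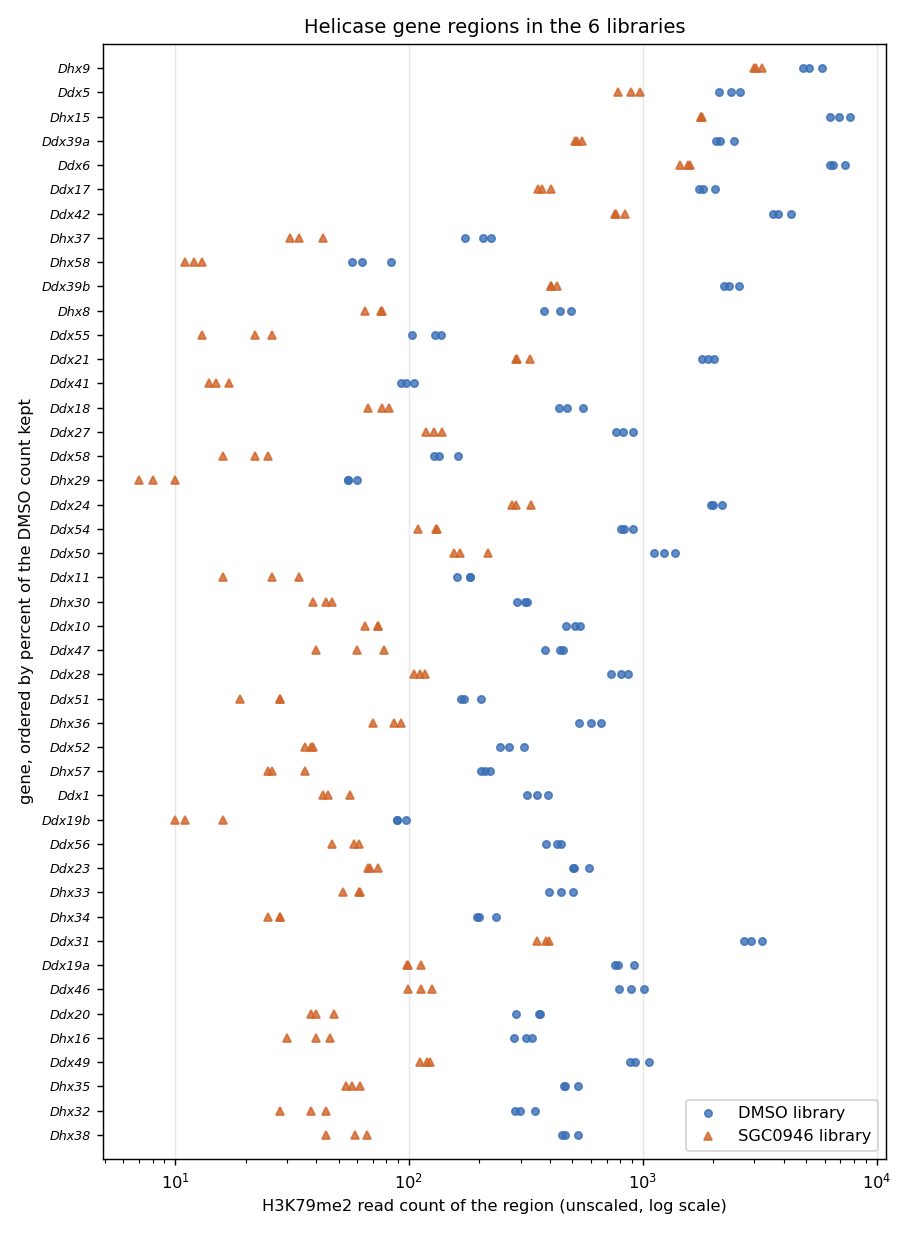
H3K79me2 read counts (unscaled, log axis) of the region of each of the 45 helicase genes in the 3 DMSO libraries (circles) and the 3 SGC0946 libraries (triangles), with genes ordered by the percentage of the DMSO count kept. The groups lie apart in every gene, and the gap is narrowest for Dhx9, which kept 58.5%.

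On the share scale the members split. With SGC0946 the share was higher in 7 members (Dhx9, Ddx5, Dhx15, Ddx39a, Ddx6, Ddx17 and Ddx42), lower in 18, and did not pass the test in 20 (edgeR quasi-likelihood test, adjusted p under 0.05). Among all coding genes tested, 9.98% were higher and 50.1% lower. Read against these values, 7 of 45 is a little above the background and 18 of 45 a little below it. The members' median log2 fold change of share, -0.28, was close to the -0.29 of all coding genes. These counts depend on the scaling: with TMM factors the split was 7 higher and 7 lower (Ddx19a, Ddx31, Ddx46, Ddx49, Dhx32, Dhx35 and Dhx38), so the lower calls of the other 11 members ended there. The DESeq2 Wald test left 2 lower (Ddx31 and Ddx49), cyclic loess left Ddx31, and when libraries were scaled to the 25% of regions with the fewest DMSO counts per kb it was 2 higher (Dhx9 and Ddx5) and 35 lower. Of the 7 higher regions, those of Ddx5 and Ddx42 also overlap another coding gene (Cep95 and Ccdc47), and 4 further members share their region in the same way (Ddx31 with Gtf3c4, Ddx49 with Cope, Ddx28 with Dus2 and Dhx57 with Morn2), so their counts cannot be assigned to 1 gene. Among the 39 members with a region over a single coding gene, 5 were higher and 15 lower.

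**Figure D2:**
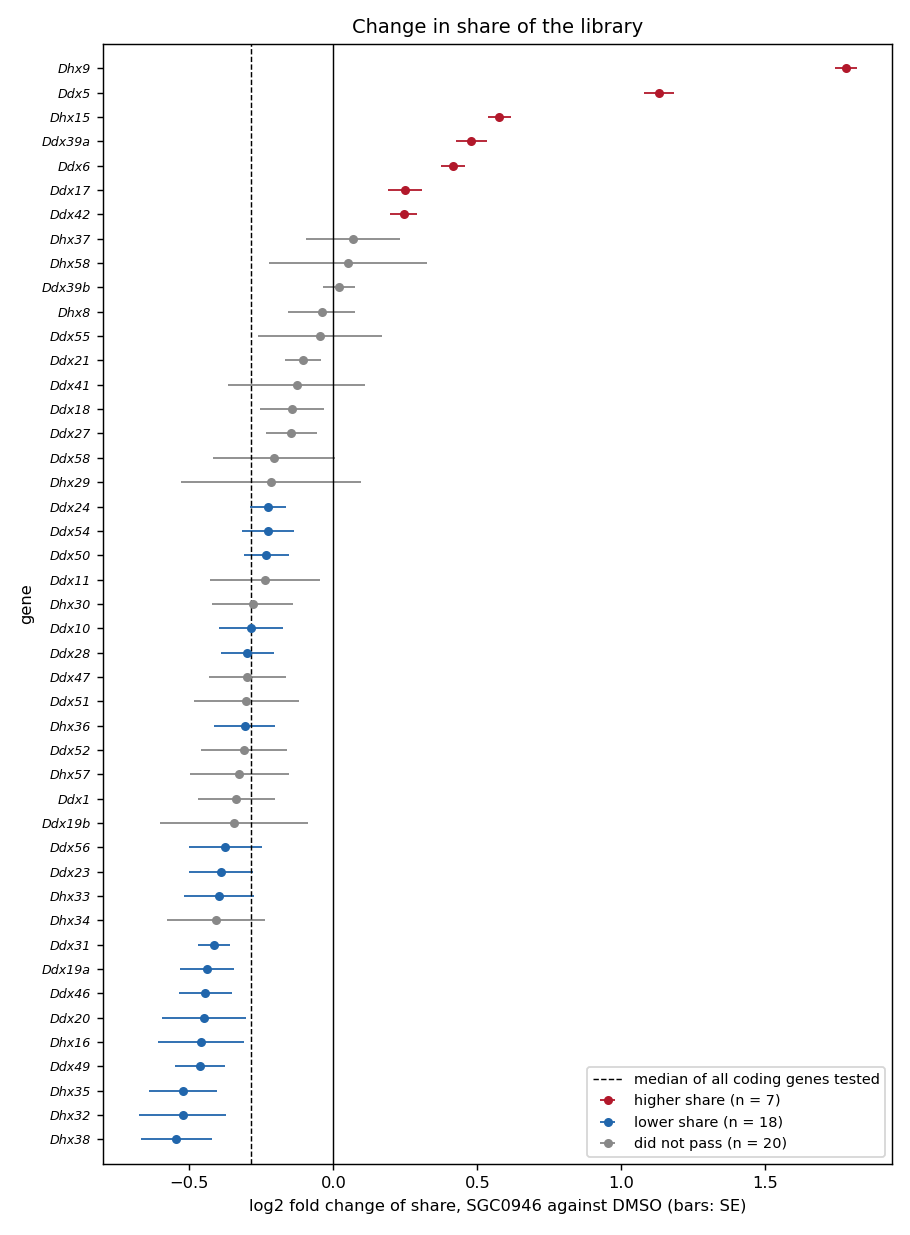
Log2 fold change of the share of the library, SGC0946 against DMSO, for the 45 helicase genes, with bars of 1 standard error from 3 libraries per group. Colours mark the call, and the dashed line is the median of all coding genes tested (-0.29). Dhx9 (1.78) and Ddx5 (1.13) stand to the right of the others.

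Of the 4 members known from transcription and several steps of RNA metabolism, 3 were higher on the share scale (Dhx9, Ddx5 and Ddx17), against 9.98% of all coding genes, and Ddx1 did not pass. The group is small and was listed with earlier results known. Dhx9, or RNA helicase A, unwinds RNA and RNA-DNA hybrids and acts as a transcriptional coactivator. Its region (chr1:153472588-153488767, mm10) had 4839, 5162 and 5856 counts in the DMSO libraries and 3228, 2995 and 3061 in the SGC0946 libraries, or 5286 ± 520 against 3095 ± 120 (SD, n = 3). The lowest DMSO library was above every SGC0946 library, so Dhx9 too lost reads (unscaled log2 fold change -0.77, adjusted p = 3.0e-15), but it kept 58.5% of them. Its share of the library rose (log2 fold change 1.78, SE 0.04, adjusted p = 1.9e-48). By percentage kept, Dhx9 ranked 11 among the 11055 regions of the table with a mean of at least 50 counts. It was also the densest helicase region, with 327 counts per kb with DMSO and 191 with SGC0946.

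Ddx5 and Ddx17 are close paralogs that act as transcriptional co-regulators and in the processing of microRNA precursors and pre-mRNA. The Ddx5 region (chr11:106780756-106788792) had 2112, 2389 and 2601 counts with DMSO and 976, 787 and 894 with SGC0946, and kept 37.4% (2367 ± 245 against 886 ± 94.8, SD, n = 3). Its share rose (log2 fold change 1.13 ± 0.05, adjusted p = 1.7e-29) while its unscaled count fell by 1.42 on the log2 scale, and it ranked 70 among the same 11055 regions. The Ddx17 region (chr15:79536004-79546668) went from 1739, 1811 and 2031 counts to 370, 405 and 356, and kept 20.3%. Its share was higher by a log2 fold change of 0.25 ± 0.06 (adjusted p = 0.000467), a call that ended with scaling on the sparsest regions, where the value was -0.17. Within libraries, Ddx5 had 1.27 ± 0.0529 times the counts of Ddx17 with DMSO and 2.36 ± 0.370 times with SGC0946 (SD, n = 3, exact 2-sided permutation p = 0.1, the smallest possible), a ratio that uses no scaling. Ddx1, part of the tRNA ligase complex, kept 13.5% (share -0.34, adjusted p = 0.0505).

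Of 11 splicing helicases, 2 were higher on the share scale, 6 lower and 3 not past the test, with a median kept of 13.0%. These counts are near the 9.98% higher and 50.1% lower of all coding genes and set the group apart in neither direction. Dhx15, which takes spent spliceosomes apart, had the longest helicase region, 37894 bp (chr5:52152805-52190698). Its counts were 6322, 6936 and 7709 with DMSO and 1776, 1787 and 1771 with SGC0946. It kept 25.4% (6989 ± 695 against 1778 ± 8.19, SD, n = 3), the groups lay far apart, and the share was higher (0.58 ± 0.04, adjusted p = 6.6e-20). With scaling on the sparsest regions that share was 0.17 and did not pass (adjusted p = 0.398). Ddx42, a helicase associated with the U2 snRNP, went from 3602, 3788 and 4320 counts to 839, 763 and 765 over a region it shares with Ccdc47 (chr11:106211785-106229486), and kept 20.2%. Its share was higher by 0.24 ± 0.05 (adjusted p = 1.2e-05) and, with scaling on the sparsest regions, -0.16.

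The 6 splicing members with a lower share act at successive steps of spliceosome assembly and catalysis or in building its snRNPs. Dhx38, which works between the catalytic steps, kept the least of all members, 11.7%: 464, 452 and 529 counts with DMSO (chr8:109561476-109565663) became 44, 59 and 66 with SGC0946 (share -0.55 ± 0.12, adjusted p = 0.000265). Dhx35, found in catalytically active spliceosomes, had 462, 466 and 526 counts with DMSO (chr2:158794878-158801053) and 62, 57 and 54 with SGC0946, or 11.9% kept (share -0.52, adjusted p = 0.000244). Dhx16, which activates the spliceosome, went from 281, 316 and 337 to 30, 40 and 46 counts (chr17:35879668-35882181), or 12.4% kept. In these 3 genes no SGC0946 library came near the DMSO range, and the order among them is within their standard errors. Ddx20, a component of the SMN complex that assembles snRNPs, had 359, 286 and 363 counts with DMSO (chr3:105684316-105687617) and 40, 48 and 38 with SGC0946, and kept 12.5%. Ddx46, which acts on the U2 snRNP at the branch site, had 792, 890 and 1008 counts (chr13:55634717-55639103) and 113, 125 and 99, and also kept 12.5%. The calls for Dhx16 and Ddx20 (share -0.46 and -0.45, adjusted p = 0.0129 and 0.0124) ended with TMM factors. They also ended without SGC0946 replicate 1 (-0.28, adjusted p = 0.298, and -0.39, adjusted p = 0.0899), and that of Ddx20 without SGC0946 replicate 3 (-0.40, adjusted p = 0.0606). The calls of Dhx38, Dhx35 and Ddx46 (share of Ddx46 -0.45, adjusted p = 5.0e-05) were also made with TMM factors but not in the DESeq2 Wald test (adjusted p = 0.0673, 0.0608 and 0.0583). Ddx23, of the U5 snRNP, was the sixth lower member (13.0% kept, share -0.39), not called with TMM factors. Dhx8, which releases spliced mRNA, Ddx41, also known as a DNA sensor, and Ddx39b kept 15.6% to 17.3% and did not pass.

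The start sequences of helicase genes from both ends of the order are shown because the mark lies at and downstream of the start. Each line gives the 250 bases upstream of the most upstream RefSeq start in the table of GRCm38.p6, read 5′ to 3′ along the gene. Dhx9 (chr1:153487661-153487910, minus strand), Ddx5 (chr11:106789186-106789435, minus strand) and Dhx15 (chr5:52190547-52190796, minus strand) kept the most. Ddx46 (chr13:55634749-55634998, plus strand), Ddx20 (chr3:105687572-105687821, minus strand), Dhx16 (chr17:35879528-35879777, plus strand) and Dhx35 (chr2:158794557-158794806, plus strand) were among the 8 named members that kept the least. Capitals mark matches on either strand to the ETS motif CCGGAAG, to CACGTG as the E-box, to GGGCGG as the GC box, to CCAAT, to the TATA box TATAAA, and to the NRF1 motif, in which any base separates GCGCA from GCGC.
Dhx9: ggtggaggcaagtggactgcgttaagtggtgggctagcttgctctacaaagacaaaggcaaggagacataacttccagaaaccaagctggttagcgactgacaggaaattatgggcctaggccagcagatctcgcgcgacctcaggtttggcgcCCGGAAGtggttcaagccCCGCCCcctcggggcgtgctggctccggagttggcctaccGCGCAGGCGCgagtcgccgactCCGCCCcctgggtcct
Ddx5: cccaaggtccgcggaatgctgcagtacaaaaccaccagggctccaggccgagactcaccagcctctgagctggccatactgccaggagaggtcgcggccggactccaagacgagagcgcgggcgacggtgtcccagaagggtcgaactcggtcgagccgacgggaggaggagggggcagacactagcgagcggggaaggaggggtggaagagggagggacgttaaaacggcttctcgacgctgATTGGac
Dhx15: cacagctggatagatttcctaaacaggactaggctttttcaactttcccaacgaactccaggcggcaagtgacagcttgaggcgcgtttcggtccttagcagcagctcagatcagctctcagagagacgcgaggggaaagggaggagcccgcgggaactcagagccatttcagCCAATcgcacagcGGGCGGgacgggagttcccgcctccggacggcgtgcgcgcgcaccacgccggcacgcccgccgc
Ddx46: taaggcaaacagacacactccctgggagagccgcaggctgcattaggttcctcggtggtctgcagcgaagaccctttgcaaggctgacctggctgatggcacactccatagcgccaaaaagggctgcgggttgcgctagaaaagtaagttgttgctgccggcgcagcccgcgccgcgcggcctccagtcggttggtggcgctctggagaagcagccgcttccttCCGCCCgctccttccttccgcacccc
Ddx20: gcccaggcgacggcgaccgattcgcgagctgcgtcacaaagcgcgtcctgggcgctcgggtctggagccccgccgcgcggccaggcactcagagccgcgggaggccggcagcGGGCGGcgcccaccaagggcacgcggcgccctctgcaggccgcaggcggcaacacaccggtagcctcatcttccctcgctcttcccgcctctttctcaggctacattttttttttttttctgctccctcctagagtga
Dhx16: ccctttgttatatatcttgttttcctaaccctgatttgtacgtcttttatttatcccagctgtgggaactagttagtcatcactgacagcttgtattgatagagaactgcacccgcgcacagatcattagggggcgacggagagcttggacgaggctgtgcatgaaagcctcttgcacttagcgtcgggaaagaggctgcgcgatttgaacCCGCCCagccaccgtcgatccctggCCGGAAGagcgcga
Dhx35: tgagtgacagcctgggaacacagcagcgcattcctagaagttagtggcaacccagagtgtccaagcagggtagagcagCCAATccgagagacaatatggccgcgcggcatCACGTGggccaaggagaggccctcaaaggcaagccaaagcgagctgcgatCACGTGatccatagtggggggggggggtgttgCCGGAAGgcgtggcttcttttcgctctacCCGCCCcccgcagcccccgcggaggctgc
The window of Dhx9 held an ETS match 96 to 90 bases before the start, an NRF1 match 38 to 29 bases before it and 2 GC boxes. Dhx35 held 2 E-boxes, an ETS match, a CCAAT and a GC box, and Ddx5 a CCAAT match on the opposite strand 7 to 3 bases before its start.

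A start entry was found for 39 of the 45 members, and none for Ddx6, Ddx11, Ddx23, Ddx39a, Dhx38 and Dhx58. Among these 39 windows 14 held the ETS motif (35.9%), against 6.91% of the 32851 windows of the same length in the table. The sets are unlike: each member entered with its most upstream start, and all have a region. The windows of the table include further starts of a gene and genes without a region. The GC box was in 23 (59.0% against 32.7%), CCAAT in 17 (43.6% against 33.8%), the NRF1 motif in 5 (12.8% against 3.74%), the E-box in 2 (5.13% against 6.02%) and TATAAA in 1 (2.56% against 12.4%). The helicase windows held a median of 19 CpG pairs and 60.4% G and C, against 6 and 52.4% over all windows. The letters of the GC box, ETS and NRF1 motifs are themselves rich in G and C, and those of CCAAT are not. Whether base composition bears on the matches was not tested. Of the 5 members with a higher share and a window, 2 held the ETS motif and 4 the GC box. Of the 16 with a lower share and a window, 7 held the ETS motif and 13 the GC box. Each match is a match of letters and not evidence of a bound factor.

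Among the 3 export helicases, Ddx39a was higher on the share scale, Ddx19a lower and Ddx19b not past the test. Ddx39a, with its paralog Ddx39b, loads export factors onto mRNA. The Ddx39a region (chr8:83715200-83722076) had 2065, 2135 and 2457 counts with DMSO and 511, 522 and 549 with SGC0946, and kept 23.8% (share 0.48 ± 0.05, adjusted p = 1.5e-11), though with scaling on the sparsest regions the share was 0.07 and did not pass. Ddx39b, which also acts in splicing, had 2234, 2336 and 2584 counts (chr17:35241846-35251474) and 431, 404 and 404, and kept 17.3% (share 0.02, adjusted p = 0.848). Per length both were dense with DMSO, at 323 counts per kb for Ddx39a and 248 for Ddx39b. The ratio of Ddx39a to Ddx39b counts was 0.930 ± 0.0190 in the DMSO libraries and 1.28 ± 0.0874 in the SGC0946 libraries (SD, n = 3, exact permutation p = 0.1), with Ddx39a below Ddx39b in each DMSO library and above it in each SGC0946 library. Ddx19a and Ddx19b release mRNA from export factors at the nuclear pore. Ddx19a had 759, 786 and 919 counts with DMSO (chr8:110992346-110998050) and 99, 98 and 113 with SGC0946, and kept 12.6% (share -0.44, adjusted p = 8.4e-05). Its ratio to Ddx19b was 8.99 ± 1.26 with DMSO and 8.80 ± 2.56 with SGC0946 (exact permutation p = 1). Paralogs can share reads, and no source used here says how the submitters treated reads with several matches.

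Ribosome biogenesis was the largest group. Of 16 members, 8 were lower on the share scale and 8 did not pass, which is the background share of lower calls (50.1% of all coding genes), and with TMM factors Ddx31 and Ddx49 alone were lower. The 16 kept between 12.4% and 17.9%, with a median of 14.3%. Ddx49, a nucleolar helicase of pre-rRNA processing, kept the least (chr8:70299146-70305807): its counts were 878, 922 and 1059 with DMSO and 123, 120 and 111 with SGC0946, over a region shared with Cope (share -0.46, adjusted p = 9.0e-06). Dhx37, needed for the small ribosomal subunit, kept the most (chr5:125431562-125434155): it went from 173, 207 and 224 counts to 43, 31 and 34 (share 0.07 ± 0.16, adjusted p = 0.825). Ddx24 was the densest of the group at 248 counts per kb with DMSO (chr12:103417864-103426096), with 1956, 1997 and 2173 counts against 332, 286 and 277. Its 14.6% kept gave a share of -0.23 (adjusted p = 0.00228), and -0.09 with TMM factors. Ddx31, Dhx33, Ddx56, Ddx10, Ddx50 and Ddx54 were the other members with a lower share (-0.41 to -0.23), and Ddx18, Ddx21, Ddx27, Ddx47, Ddx51, Ddx52 and Ddx55 did not pass. Ddx21 and Ddx50, paralogs of the nucleolus, stood at a ratio of 1.54 ± 0.0715 with DMSO and 1.72 ± 0.340 with SGC0946 (exact permutation p = 0.4).

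In the group of translation and mRNA decay, Ddx6 was higher on the share scale, Dhx36 lower, and Dhx29 and Dhx34 did not pass. Ddx6, which represses translation and promotes decapping in P-bodies, had one of the longest regions (chr9:44601684-44633782). It had 6323, 6541 and 7336 counts with DMSO and 1599, 1442 and 1557 with SGC0946, and kept 22.8% (share 0.41 ± 0.04, adjusted p = 1.4e-13), though with scaling on the sparsest regions the share was 0.01 and did not pass. Dhx36, which resolves G-quadruplexes, kept 13.8% (share -0.31, adjusted p = 0.0196), a call that ended with TMM factors. Dhx29, which helps ribosomes scan structured leaders, kept 14.7%, and Dhx34, a factor of nonsense-mediated decay, 12.9% (share -0.41, adjusted p = 0.0655).

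The RNA sensors, which macrophages use against viruses, were sparsely covered. Ddx58, also named RIG-I, triggers interferon production on viral RNA. Its region (chr4:40236562-40239638) had 162, 134 and 128 counts with DMSO and 25, 16 and 22 with SGC0946, and kept 14.9% (share -0.20 ± 0.21, adjusted p = 0.547). Dhx58, the regulator LGP2 that lacks the signalling domain of RIG-I, had the shortest helicase region, 922 bp (chr11:100703100-100704021). It held 57, 63 and 84 counts with DMSO and 11, 13 and 12 with SGC0946, and kept 17.6% (share 0.05 ± 0.27, adjusted p = 0.927). Both fell on unscaled counts, and neither passed on the share scale; when libraries were scaled to the sparsest regions, Ddx58 was lower (-0.62, adjusted p = 0.00504). Ddx60, an interferon-induced helicase, had no region.

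The remaining members had other or less described roles. Ddx28 and Dhx30 serve the mitochondrial ribosome, and they kept 13.9% (share lower, though not with TMM factors, region shared with Dus2) and 14.1% (not past). Dhx32, a less described helicase, was lower: 297, 284 and 346 counts with DMSO (chr7:133767825-133773665) against 38, 44 and 28 with SGC0946, or 11.9% kept (share -0.52, adjusted p = 0.00406), a value below the middle 50% of the members. Without SGC0946 replicate 3 that call ended (-0.38, adjusted p = 0.0951). Dhx57 kept 13.6%, and Ddx11, a DNA helicase of sister chromatid cohesion, kept 14.5%; neither passed. By family name, Ddx genes had a median kept of 14.5% (5 higher and 12 lower of 30) and Dhx genes 13.8% (2 higher and 6 lower of 15). Among all coding genes 9.98% were higher and 50.1% lower, and a difference between the families was not tested.

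Summed over the 45 regions, the helicases held 0.294%, 0.308% and 0.299% of the counts in the DMSO libraries and 0.410%, 0.404% and 0.413% in the SGC0946 libraries (exact permutation p = 0.1). Dhx9 alone made up 9.91 ± 0.109% of the members' counts with DMSO and 25.0 ± 0.259% with SGC0946 (SD, n = 3). Without Dhx9 the members' part was 0.271 ± 0.00612% with DMSO and 0.307 ± 0.00270% with SGC0946. The higher sum came from the 7 members with a higher share, which held 0.165 ± 0.00396% with DMSO and 0.297 ± 0.00691% with SGC0946. The other 38 held 0.135 ± 0.00302% with DMSO and 0.112 ± 0.00222% with SGC0946, a smaller part. This split follows the calls and was not tested.

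Dhx9 had 4 regions, and what it kept differed sharply along the gene. The main region ran from position -1107 to position 15072 relative to the start. After a gap of 630 bp came a second region of 11674 bp (chr1:153460284-153471957), in which the mean count fell from 753 to 101, so that 13.5% was kept (share -0.34, adjusted p = 0.003). The last regions had 87.7 and 43.3 counts with DMSO and kept 11.0% and 12.3%. The main region held 6.83, 7.11 and 7.11 times the counts of the second in the DMSO libraries and 30.2, 31.9 and 29.7 times in the SGC0946 libraries. This ratio needs no scaling, and it was higher in each SGC0946 library than in any DMSO library. The 4 regions of at least 50 mean counts within 200 kb of Dhx9, 3 of them over Lamc1, kept 13.0% to 18.7%.

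**Figure D3:**
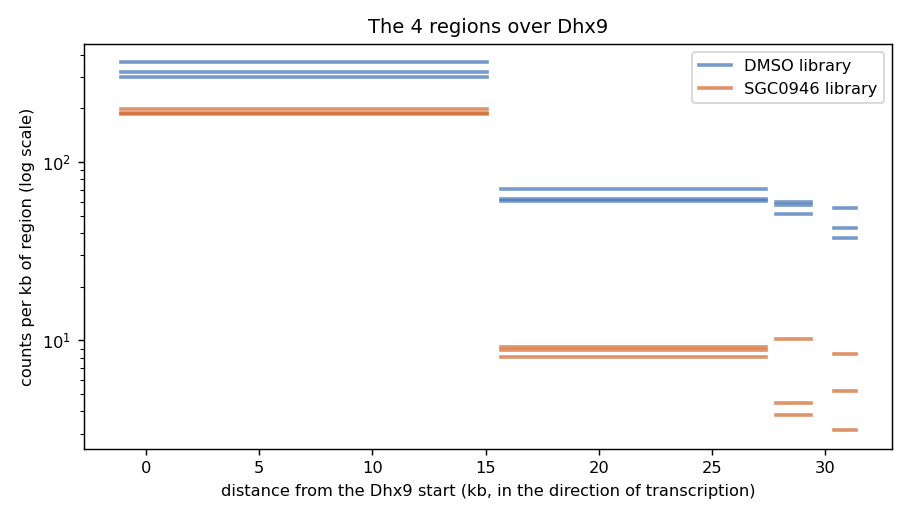
H3K79me2 counts per kb (log axis) in the 4 regions over Dhx9 in each of the 6 libraries, drawn by their distance from the gene start along the direction of transcription. DMSO and SGC0946 libraries are close over the main region, which kept 58.5%, and far apart over the second, which kept 13.5%.

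Neighbours of the other 6 members with a higher share were measured in the same way. All but 1 kept less than the member beside them, an outcome that picking members for a higher share favours. Around Ddx5, 5 such regions kept 12.0% to 19.1%, among them one over Cep95 that began 530 bp from the Ddx5 region and kept 14.3%. Around Ddx39a 8 regions kept 10.5% to 19.4%, and around Ddx6 3 regions kept 16.1% to 21.0%, a range that nearly meets the 22.8% of Ddx6. The single such region near Dhx15 kept 10.5%, and 6 around Ddx17 kept 10.6% to 14.3%. Around Ddx42, 11 regions kept 12.8% to 23.0%, and the highest, over Limd2, was above the 20.2% of Ddx42. For comparison, the 11055 regions used to rank Dhx9 and Ddx5 kept a median of 13.8%, with the middle 50% between 12.3% and 16.1%. Members picked for a higher share therefore lie above most regions anywhere. For this reason the neighbours cannot decide whether these members differ from their surroundings in particular. Beside their main regions, 15 members had 30 further regions, with a median density of 36.3 counts per kb against 128 for the main regions. The 10 of these with a DMSO mean of at least 50 counts kept 9.86% to 16.6%. The lowest was the second region of Ddx46, from 5750 to 9980 bp after the start, where 483 mean counts became 47.7 (share -0.79).

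**Figure D4:**
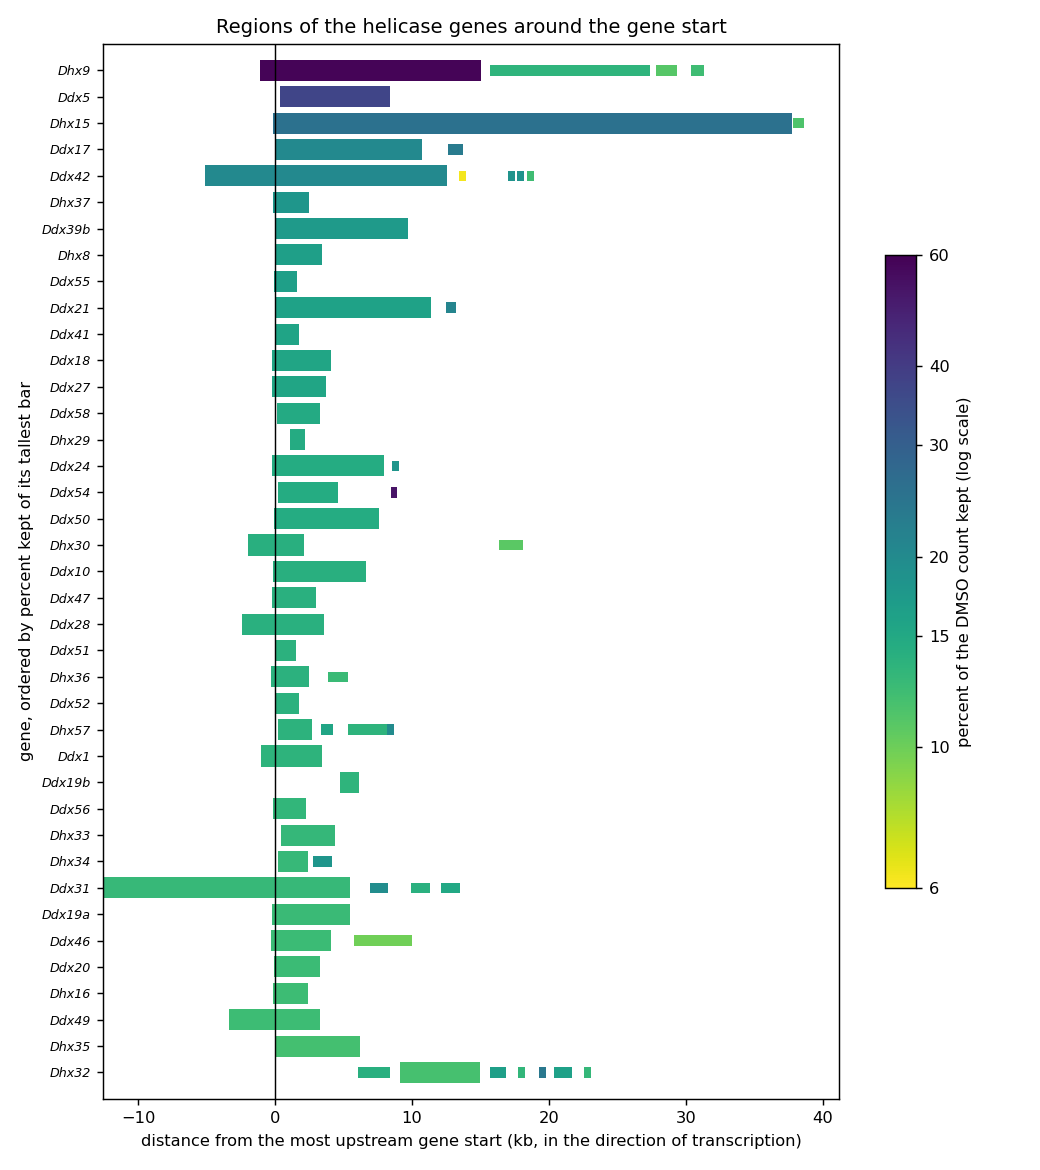
Regions over the 39 helicase genes with a start entry, placed by distance from the most upstream start in kb along the direction of transcription, with tall bars for the main region and short bars for the others. Colour gives the percentage of the DMSO count kept, on a log scale from 6 to 60. The tall bars begin near the start in most genes, and Dhx9 and Dhx15 have the darkest long bars.

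Most main regions began at the gene start: 25 of the 39 held the start itself, and 29 had their first edge within 500 bp of it. The last edge lay a median of 3745 bp after the start, from 1550 to 37741 bp, and under 8000 bp in 31 genes. Members with a higher share were covered along more of their length. Counting all regions of a gene and not the main one alone, a median of 84.6% of the gene was covered. The range was 45.3% for Ddx42 to 95.5% for Dhx15, and the value for Dhx9, 91.7%, includes its 4 regions. The median was 19.9% for members with a lower share (range 4.49% to 100%) and 12.1% for those not past the test (2.57% to 80.5%). Over all coding genes the medians were 70.4%, 41.2% and 19.9% in the same order. DMSO density ran the same way, at 221, 139 and 83.2 counts per kb for the members and 260, 129 and 66.8 for all coding genes. Coverage alone did not separate them: the region of Ddx39b spanned 80.5% of its gene, and it kept 17.3%.

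Across the 43 members with at least 50 mean counts, the percentage kept and DMSO density had a Spearman rho of 0.400. Without the 5 members that kept the most it was 0.166. That trim was made on the percentage kept itself, which can lower rho, and it was not made over all genes. Over the 7939 coding genes of the same depth rho was 0.175. The points share their libraries, and the DMSO count enters both measures. For region length rho was 0.328 in the members, 0.0710 without those 5, and -0.0211 over all genes. In the densest class, at least 300 counts per kb, the 397 coding genes kept a median of 23.9% with the middle 50% between 18.7% and 29.8%; Ddx39a, at 23.8%, lay at that median and Dhx9, at 58.5%, far above it. In regions with under 15 DMSO counts per kb (1443 regions, picked for that), densities were 4.23 ± 0.381 counts per kb with DMSO and 10.2 ± 2.57 with SGC0946 (SD, n = 3). Helicase regions with SGC0946 held 6.28 to 191 counts per kb, and 14 of them lay at or below the sparse-region mean plus 1 SD. That SD is the spread of a pooled density between libraries and not between regions. It therefore cannot decide whether a single region stands apart from this level. The sparse regions were picked on their DMSO counts, so their SGC0946 density is not a measured floor. Of these 14, 4 had a lower share (Ddx10, Ddx20, Dhx32 and Dhx35).

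**Figure D5:**
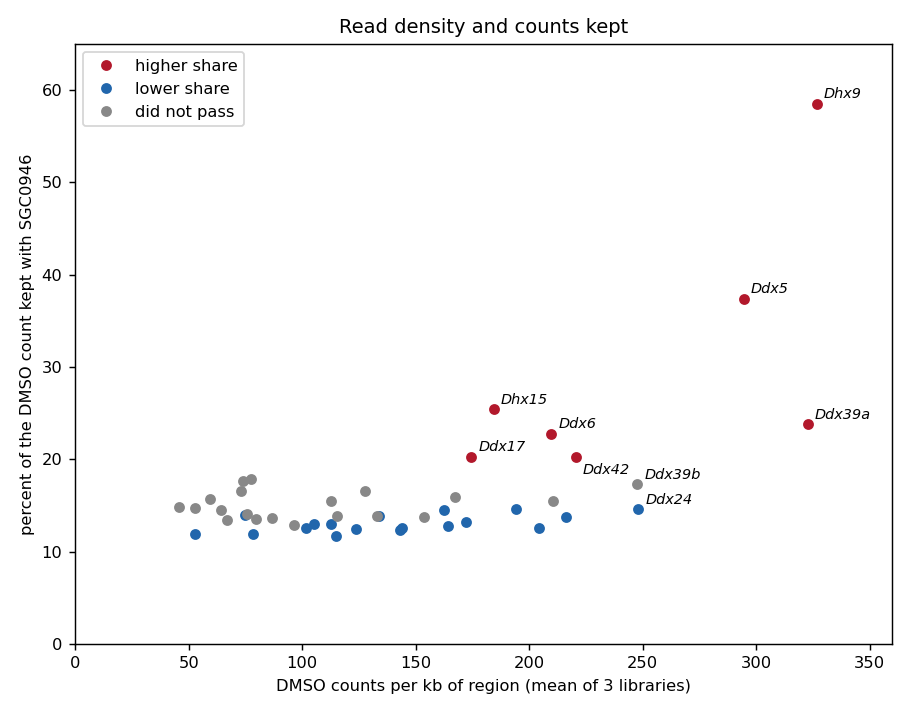
Percentage of the DMSO count kept with SGC0946 against DMSO counts per kb for the 45 helicase genes, each point the mean of 3 libraries per group and coloured by its call on the share scale. Dhx9 and Ddx5 stand above the rest, and Ddx39b and Ddx24, at 248 counts per kb, kept 17.3% and 14.6%.

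Genes related to the helicases by function were close to the background of all coding genes (9.98% higher, 50.1% lower). Among 23 other RNA helicases, 18 had a region: 3 were higher on the share scale, 9 lower and 6 not past, with a median kept of 13.9%. The highest were Mov10, an antiviral helicase with few counts (17.7 against 8.67, 49.1% kept, adjusted p = 0.0032) whose 10.2 counts per kb with SGC0946 are at the level of the sparse regions, and Eif4a1, the translation initiation helicase, whose region also covers Cd68 and Senp3 (28.3% kept). The lowest were Dicer1, which cuts microRNA precursors (10.5%), and Aqr, a spliceosome helicase (10.6%). Of 57 partners and cofactors of the helicases, 52 had a region: 6 were higher, 27 lower and 19 not past, with a median kept of 14.3%. Eif4b (29.9%) and Son (29.5%) stood highest among them, and Cherp (10.6%) and Gemin7 (11.1%) lowest.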

How the data were processed

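Sequenced chromatin fragments from 6 H3K79me2 libraries (3 DMSO, 3 SGC0946) were analysed as the whole-number read counts per region that the authors deposited, which show no sign of scaling between libraries. Per the labels' protocols, chromatin of 10 to 20 M cells was fixed with 1% formaldehyde for 10 min, and 50 bp single reads were taken to a nominal 40 M. The submitters' processing notes name HISAT2, HOMER 4.11.1, bedtools 2.27.0, ChIPseeker 1.20.0, R 3.6.3 and mm10. How regions were called (per sample or pooled), how duplicates and multiply mapping reads were treated, and whether libraries were thinned are not given in the sources used here, and each could change the counts.

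Regions were joined to RefSeq gene spans of GRCm38.p6, which carry no exons, and positions are 1-based. The test across all regions was the quasi-likelihood F test of edgeR 4.0.16, run in R 4.3.3 (filterByExpr, Benjamini-Hochberg over all regions, threshold 0.05), once with library totals and normalization factors of 1 (share) and once with equal library sizes (unscaled). The biological coefficient of variation was 3.57%. The percentage kept is the mean SGC0946 count over the mean DMSO count. Standard errors came from each fold change and its F statistic. Library pairs of a group differed by more than sampling noise (chi-square per degree of freedom 1.32 to 2.38). On simulated counts of this comparison (22017 regions tested, dispersion 0.002), 36% of regions changed 1.25-fold, 62% at 1.5-fold, 84% at 2-fold and 96% at 4-fold were recovered with 8 false calls. The simulation changed only 200 regions, in random directions, and gave all other regions the DMSO composition. In the data 50.1% of coding genes were called lower, so recovery and false calls there may differ. Motifs, positions and figures used Python 3.11.15, pandas 2.3.3, numpy 2.4.6 and matplotlib 3.10.9.

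Alternatives were TMM and DESeq2 size factors, the DESeq2 1.42.0 Wald test, cyclic loess with limma 3.58.1, scaling on the sparsest 25% of regions, other count filters, summed regions, a replicate block and leaving out each library. Counting only members over a single coding gene was chosen after seeing the data. The members, role lists and other lists were chosen with earlier results of these data known. Values per library are given for the 8 tested members at each end by share with a mean of at least 50 counts, the 5 densest and the RNA sensors. Motif choice and the measures along Dhx9, around the higher members and by call followed sight of the data.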

Additional observations from a re-analysis of the deposited data

How the results depend on the processing

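The direction and the calls of unscaled counts were the same for the named members in every alternative run. On the share scale, 7 members were higher under TMM factors, DESeq2 size factors, the DESeq2 Wald test, both filters, summed regions and each left-out library, and the same 7 plus Ddx39b under cyclic loess; scaling on the sparsest 25% of regions left 2. Lower calls moved from 18 to 7 with TMM factors and 7 with DESeq2 size factors (the same genes: Ddx19a, Ddx31, Ddx46, Ddx49, Dhx32, Dhx35 and Dhx38), 2 with the DESeq2 Wald test (Ddx31 and Ddx49), 1 with cyclic loess (Ddx31) and 35 with scaling on the sparsest regions. TMM factors raised the median of all regions by 0.14 on the log2 scale and the sparsest-region scaling changed it by -0.42, which by construction moves every region. Leaving out 1 library gave 7 higher in each case, 12 to 21 lower, a median kept of 13.8% to 14.8% and a total kept of 16.6% to 18.0%. Same-numbered libraries did not deviate together (correlations 0.0059, -0.0595 and -0.0004). The median region tested had a DMSO mean of 72 counts, where counting noise can hide a pairing. These correlations therefore cannot exclude that the number pairs the libraries. With the number as a replicate block, 7 members were higher and 16 lower. Signs turned under the sparsest-region scaling for Ddx17 (-0.17), Ddx42 (-0.16), Dhx37 (-0.36), Ddx39b (-0.39, adjusted p = 0.0101) and Dhx58 (-0.37), under cyclic loess for Ddx24 (0.0475), without DMSO replicate 1 or SGC0946 replicate 2 for Dhx58 (-0.0216 to 0.154 over the left-out libraries) and without SGC0946 replicate 1 for Dhx37 (-0.0559 to 0.158). The cause was not tested. Over all regions, the part of share calls that were higher was 20.9%, 35.7% with TMM factors, 38.2% with size factors, 38.4% in the DESeq2 Wald test, 51.1% with cyclic loess and 5.15% with sparsest-region scaling. Without spike-in chromatin or read totals, a fall of all regions and a difference in depth cannot be told apart on these counts.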

Other observations

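Ddx3x, a DEAD-box helicase of translation on the X chromosome and so outside the rule, also kept much of the mark. Its region (chrX:13280902-13287086) had 1260, 1405 and 1568 counts with DMSO and 617, 574 and 559 with SGC0946, and kept 41.3% (1411 ± 154 against 583 ± 30.1, SD, n = 3). Its share was higher by a log2 fold change of 1.28 ± 0.06 (adjusted p = 7.9e-31 in edgeR's quasi-likelihood test), between the values of Dhx9 and Ddx5. This gene was chosen after its values were seen. Its paralog on the Y chromosome, Ddx3y, had no region.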
